A study of Homo sapiens with 8 samples.

Results

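The transcriptome described here is that of wild-type (WT) LP-1 cells kept in the DMSO vehicle, without SI-2, a small-molecule inhibitor of the coactivator SRC-3. LP-1 is an established human multiple myeloma cell line that carries the t(4;14) translocation. The labels call it a B lymphoblast line from a myeloma, grown in RPMI-1640 with fetal bovine serum. The study held 4 groups of 2 libraries, WT or bortezomib-resistant (BR) LP-1 with DMSO or SI-2, and the 2 WT DMSO libraries were chosen by title from the 8. A protocol text common to all samples mentions SI-2, whereas the titles of these 2 libraries give DMSO and their treatment label gives untreated. RNA was total RNA from Trizol, sequenced as cDNA, and the study calls its BR libraries independent experiments but neither it nor the labels say so of the WT ones, so the spread between these may be partly technical. One line grown in culture also holds no marrow stroma or other patient cells.

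Plasma cells are the antibody-secreting end of the B cell lineage. As a B cell becomes a plasma cell, IRF4, PRDM1 and XBP1 replace the PAX5-led B cell programme, and the endoplasmic reticulum (ER) grows to fold and export immunoglobulin. Myeloma is a cancer of these cells, and in t(4;14) the immunoglobulin heavy-chain locus is joined to the region of NSD2 and FGFR3.

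Levels are given as FPKM, fragments scaled to transcript length and to sequencing depth, which allows comparison between genes of unequal length. The table listed 18564 genes, and library 1 and library 2 held 17997771 and 18279494 estimated reads. A gene was called detected at a mean of 1 FPKM or more over both libraries, and 11088 genes reached that level, which is 59.7% of those listed. Another 1485 genes had 0 in both libraries. A count of 0 allows up to 3 reads, or 0.167 and 0.164 CPM (reads scaled to a depth of 1e+06) in libraries 1 and 2, and this limit covers counting error only. Of the detected genes, 4785 lay from 1 to under 10 FPKM, 5620 from 10 to under 100, 550 from 100 to under 500, and 133 at 500 or more. The median over all listed genes was 3.11 FPKM in library 1 and 3.27 FPKM in library 2.

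Few genes held much of the summed FPKM. The 10 most abundant genes held 8.28% and 8.02% of the summed FPKM in libraries 1 and 2, the 100 most abundant held 30.8% and 31.4%, and the 1000 most abundant held 63.9% and 64.1%. By estimated counts, the 100 genes of highest count held 18.7% on average. Averaged over both libraries, 388 genes held 50% of the sum. The order near the top was coarse, since 33 of the 40 steps from one gene to the next joined genes whose ranges over the libraries overlapped.

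The leading gene was IGLL5, with 9673 FPKM in library 1 and 8140.0 FPKM in library 2, above every other gene in each library. By estimated count, which is not scaled to length, EEF1A1 came first and IGLL5 next. IGLL5 lies in the immunoglobulin lambda locus and shares its constant exon with a lambda constant gene. No heavy-chain, kappa or lambda constant gene stood in the table under its own symbol, so reads of a lambda light chain and of IGLL5 could not be told apart. JCHAIN, which joins polymeric antibody, had rank 5, with 3819 and 2482 FPKM. IGLL5 and JCHAIN together made up 2.97% and 2.36% of the summed FPKM.

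Most other genes at the top belonged to the protein-making machinery. EEF1A1, the elongation factor that brings aminoacyl-tRNA to the ribosome, had 5134 and 5695 FPKM. Cytosolic ribosomal protein genes took 5 of the first 10 places, 29 of the first 40 and 62 of the first 100. RPS27 had 4130.2 and 4567 FPKM, RPLP1 had 3657 and 3765 FPKM, and RPS18 had 2386 and 2380.0 FPKM. These 3 genes differed little between the libraries. The family as a whole, 86 genes, held 19.7% and 20.6% of the summed FPKM, with a median mean level of 1020.5 FPKM. Of its members 84 were detected, or 97.7% beside 59.7% of all genes. These transcripts are short, and the family held 6.78% and 7.02% of the estimated counts, with 23 of the 100 genes of highest count. The 2 members not detected were RPL3L, with 0.04 FPKM in each library, and RPL10L, with 0.07 and 0 FPKM, both paralogs known from other tissues. Ribosomal protein genes have many processed copies in the genome, and reads may be shared with them.

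**Figure D1:**
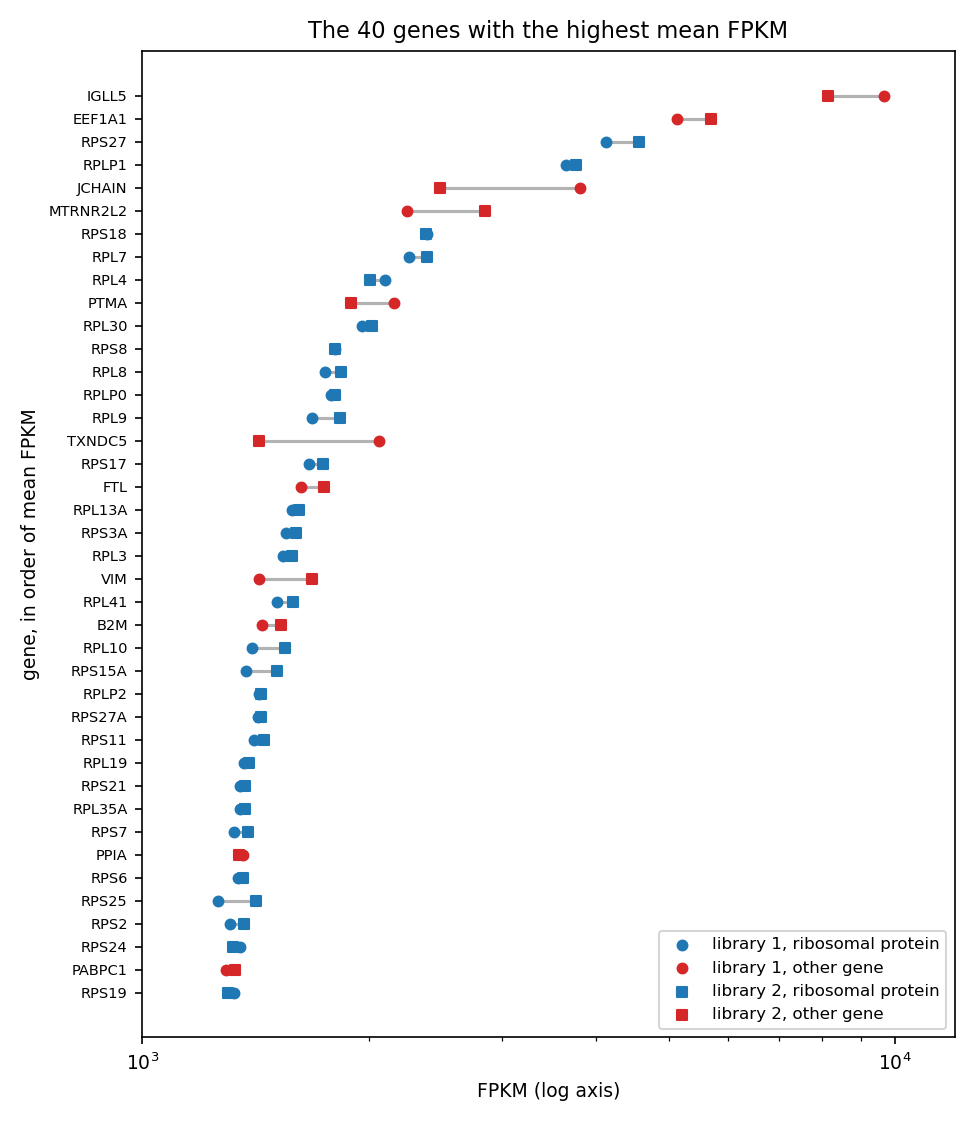
FPKM of the 40 genes with the highest mean, on a log axis, with a circle for library 1, a square for library 2 and a line joining them; blue marks ribosomal protein genes and red all others. IGLL5 stands above the rest in both libraries, 29 of the 40 are ribosomal protein genes, and JCHAIN and TXNDC5 have the widest gaps between the libraries on the log axis.

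Sequences at the annotated starts of the most abundant of these genes are shown because many translation genes begin with a terminal oligopyrimidine (TOP) tract, a C followed by pyrimidines (C or T). RefSeq windows (build GRCh38.p14, 250 bases before to 50 after the start) were matched to 14459 of the 18564 genes by gene ID, taking the first start listed for each. EEF1A1 and 4 ribosomal protein genes of the first 10 places are given from 15 bases before the start to 15 bases from it, 5′ to 3′ on the gene's strand. Capitals mark the unbroken pyrimidine run that begins with C at the annotated start, and RPL4 has none there. RPL7, the other ribosomal protein gene of these places, is not shown. It either had no window or lacked the start feature counted below.
EEF1A1, chr6:73521018-73521047, minus strand: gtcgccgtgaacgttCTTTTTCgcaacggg
RPS27, chr1:153990747-153990776, plus strand: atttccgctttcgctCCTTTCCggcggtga
RPLP1, chr15:69452803-69452832, plus strand: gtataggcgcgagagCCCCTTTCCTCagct
RPS18, chr6:33272060-33272089, plus strand: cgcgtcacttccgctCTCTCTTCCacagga
RPL4, chr15:66504841-66504870, minus strand: tacagcgggagtggtaagcacttccttttc

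A C at the start followed by at least 4 pyrimidines was present in 697 of the 14459 windows, or 4.82%. It was present in 44 of 68 ribosomal protein genes with a window, or 64.7%. By level in LP-1, the share was 3.07% of 1041 genes at 0 in both libraries, 5.30% of 4718 genes from 10 to under 100 FPKM, 13.9% of 452 genes from 100 to under 500 FPKM, and 47.1% of 104 genes at 500 FPKM or more. Of the 50 genes at 500 FPKM or more outside the ribosomal protein family, 11 had it, or 22%. A match describes letters at an annotated start and not a measured transcript end in these cells.

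Composition of the 250 bases before the start also differed by level. The CpG count over that expected from the C and G content had a median of 0.346 for genes at 0 in both libraries, 0.520 for genes above 0 and under 1 FPKM, 0.801 from 1 to under 10 FPKM and 0.883 at 500 FPKM or more. TATAAA, searched on the gene's strand from 45 to 16 bases before the start, was in 6.63% of genes at 0, in 0.975% from 10 to under 100 FPKM and in 7.69% at 500 FPKM or more, beside 2.90% of all windows. Both ends of the level scale thus had higher TATAAA shares than its middle. These are descriptions over genes, which are not independent of each other.

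**Figure D2:**
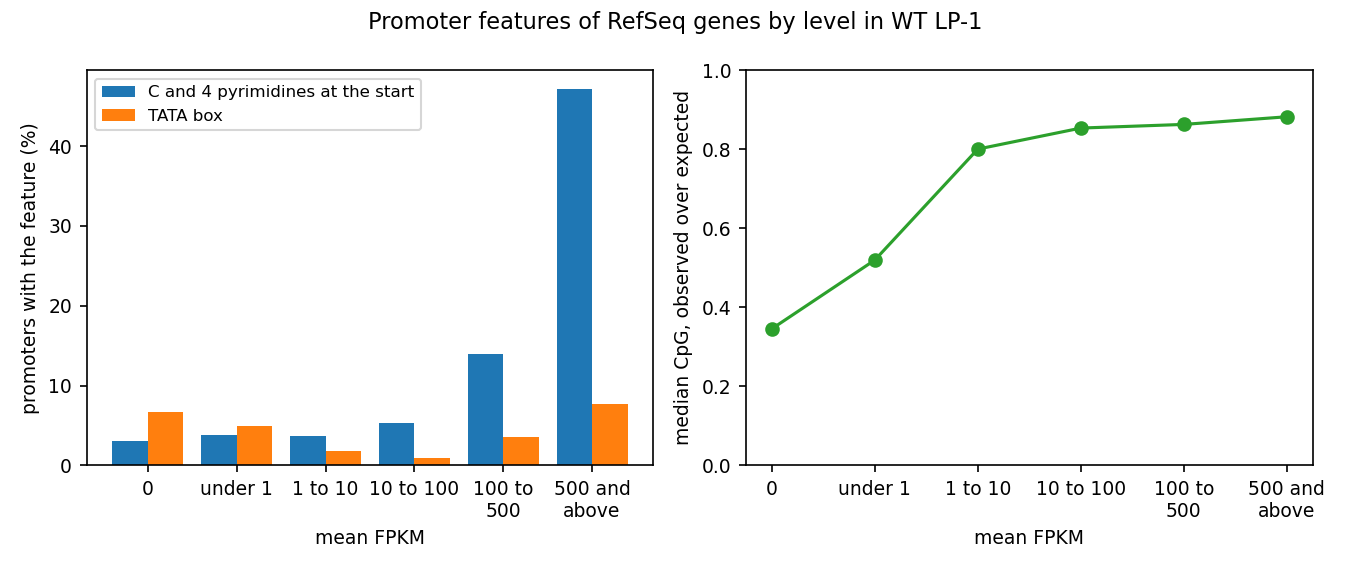
Left, percent of RefSeq windows with a C and 4 pyrimidines at the start (blue) or TATAAA upstream (orange), by mean FPKM in WT LP-1; right, median observed over expected CpG in the 250 bases before the start. The start feature rises from 3.07% at 0 FPKM to 47.1% at 500 FPKM or more, TATAAA is lowest in the middle classes, and CpG rises from 0.346 to 0.883.

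Plasma cell identity genes were mostly on. Of 41 such genes, 37 were detected, or 90.2% beside 59.7% of all genes. This and the other lists were chosen with earlier results of these data known. Their shares are thus descriptions and no test of identity. At 100 FPKM or more lay 18 of the 41, beside 683 of all 18564 genes. The median was 73.8 FPKM beside 3.21 FPKM over all genes. Among the factors, XBP1, the transcription factor of the secretory programme, had 553 and 596 FPKM. IRF4, on which myeloma cells depend, had 239 and 161 FPKM, and PRDM1, which represses the B cell programme, had 55.7 and 49.97 FPKM. The cofactor POU2AF1 had 103 and 76.5 FPKM, MEF2C had 116 and 129 FPKM, and BHLHA15, a factor of secretory cells, had 78.4 and 69.2 FPKM. The Ikaros factors IKZF1 and IKZF3, which are degraded by lenalidomide, had 19.3 and 20.3 FPKM and 16.2 and 17.4 FPKM. POU2F2, at 0.15 and 0.19 FPKM, and ZBTB20, at 0.43 and 0.45 FPKM, were the factors below detection.

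All 14 secretory members of the list were detected, beside 59.7% of all genes. TXNDC5, a disulfide isomerase of the ER, had 2060 and 1427 FPKM, MZB1, a cochaperone of antibody assembly, had 657 and 572 FPKM, and the kinase PIM2 had 507 and 554 FPKM. DERL3, of ER-associated degradation, had 153 and 95.1 FPKM. ELL2, an elongation factor used for secreted immunoglobulin mRNA, had 87.1 and 61.6 FPKM. EAF2, its partner, was the lowest of the 14, with 11.2 and 5.79 FPKM.

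The surface members covered a wide range. ITGB7, an integrin beta chain, was the highest, with 645 and 787 FPKM, followed by TNFRSF17 (BCMA, the receptor for BAFF and APRIL), with 336 and 209 FPKM. TNFRSF13B (TACI), a receptor for the same ligands, had 124 and 98.7 FPKM, the chemokine receptor CXCR4 had 111 and 132 FPKM, and CD38 had 44.7 and 33.6 FPKM. SDC1 (CD138), the usual surface marker of plasma cells, was modest, with 7.64 and 10.0 FPKM, as was GPRC5D, an antibody target in myeloma, with 8.78 and 9.69 FPKM. SLAMF7, the target of elotuzumab, was below detection with 0.48 and 0.60 FPKM, and FCRL5 had 0 FPKM in both libraries. CD27 was near the detection level, with 1.87 and 1.93 FPKM. Across the 33 listed surface antigens and drug targets, 24 were detected, or 72.7% beside 59.7% of all genes, with a median of 17.8 FPKM.

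The octamer ATGCAAAT, the site class of the POU2F factors that POU2AF1 assists, was searched on both strands of the same RefSeq windows. It was in 226 of 14459 windows, or 1.56%, and in 3 of the 33 plasma cell identity genes that had one. Its share did not rise with level. The share was 2.11% at 0 in both libraries, 1.06% from 10 to under 100 FPKM, 1.99% from 100 to under 500 FPKM and 0.962% at 500 FPKM or more. Of the 226 genes 127 were detected, beside 59.7% of all listed genes. The 3 plasma cell identity genes are shown with 20 bases on either side of the matches and the octamer, in either orientation, in capitals. IGLL5 and TNFRSF17 had no window.
PIM2, chrX:48919120-48919204, minus strand: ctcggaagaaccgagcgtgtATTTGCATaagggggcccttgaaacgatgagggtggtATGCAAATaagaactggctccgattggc
BHLHA15, chr7:98211384-98211431, plus strand: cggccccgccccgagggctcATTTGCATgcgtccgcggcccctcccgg
CD320, chr19:8308533-8308580, minus strand: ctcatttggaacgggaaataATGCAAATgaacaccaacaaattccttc

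The ER machinery that serves secretion was on almost throughout. Of 61 genes for translocation, folding, glycosylation, degradation and stress sensing, 60 were detected, or 98.4% beside 59.7% of all genes. Of the 61, 38 lay at 100 FPKM or more, with a median of 157 FPKM over the list. They held 3.13% and 3.04% of the summed FPKM. TUSC3, an oligosaccharyltransferase subunit, was the exception, with 0 FPKM in both libraries. SSR2, of the translocon-associated complex, was the highest, with 1291 and 1323 FPKM, and SEC61B, of the protein channel, had 278 and 295 FPKM. Among chaperones, PPIB had 751 and 754 FPKM, P4HB had 592 and 642 FPKM, CALR had 560.1 and 537 FPKM, HSP90B1 had 517 and 446 FPKM, and HSPA5 (BiP) had 218 and 221 FPKM. The 3 sensors of unfolded protein, ERN1 (IRE1), ATF6 and EIF2AK3 (PERK), lay lower, at 56.1 and 44.9, 51.0 and 37.9, and 73.5 and 65.5 FPKM. ATF4, translated when PERK is active, had 771 and 936 FPKM, and DDIT3 (CHOP), one of its targets, had 101 and 78.0 FPKM.

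The ER stress element, CCAAT followed after 9 bases by CCACG, is the site through which ATF6 and XBP1 act on chaperone genes. On both strands it was in 19 of 14459 windows, or 0.131%. Of those 19 genes 15 were detected, beside 59.7% of all listed genes, which is too few genes to set the shares apart. The element was in 7 of the 52 ER genes that had a window, or 13.5%, and in 6 of the 17 chaperones. The matches in the ER genes at 50 FPKM or more are shown with up to 20 bases on either side, together with SERP1, an ER stress protein outside the list, named after its match was seen, with 319 and 276 FPKM. Capitals mark the element in either orientation. ERO1B, at 5.34 and 4.10 FPKM, was the other ER gene with a match.
XBP1, chr22:28800583-28800641, minus strand: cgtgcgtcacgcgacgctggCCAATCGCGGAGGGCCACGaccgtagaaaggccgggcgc
CALR, chr19:12938364-12938422, plus strand: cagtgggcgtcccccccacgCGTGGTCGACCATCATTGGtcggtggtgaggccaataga
HSP90B1, chr12:103930196-103930359, plus strand: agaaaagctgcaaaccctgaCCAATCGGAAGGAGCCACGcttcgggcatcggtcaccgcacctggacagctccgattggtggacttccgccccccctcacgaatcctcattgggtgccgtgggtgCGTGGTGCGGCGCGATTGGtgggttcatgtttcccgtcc
CANX, chr5:179698758-179698816, plus strand: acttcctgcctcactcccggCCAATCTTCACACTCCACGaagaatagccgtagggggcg
HSPA5, chr9:125241371-125241429, minus strand: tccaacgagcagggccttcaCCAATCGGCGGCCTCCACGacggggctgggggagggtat
CRELD2, chr22:49918534-49918592, plus strand: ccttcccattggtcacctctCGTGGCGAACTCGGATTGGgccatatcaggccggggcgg
SERP1, chr3:150546690-150546746, minus strand: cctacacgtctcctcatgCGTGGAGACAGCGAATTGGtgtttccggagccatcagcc

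At the transcript level, XBP1 was listed as 2 RefSeq transcripts. The unspliced form had 483 and 503 FPKM, and the form whose short intron IRE1 removes, which encodes the active factor, had 69.6 and 93.4 FPKM, or 12.6% and 15.7% of the gene's FPKM. The forms share nearly all of their sequence, so this division rests on the estimate of the authors' counting. For PRDM1, the full-length transcript had 36.9 and 30.7 FPKM, and the shorter beta form had 17.98 and 18.2 FPKM.

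B cell surface and signalling genes were mostly off, although the labels call the line a B lymphoblast. Of 40 genes chosen for this list, 38 were listed and 14 were detected, or 36.8%, with a median of 0.405 FPKM. PAX5, the factor that keeps B cell identity, MS4A1 (CD20), CD22, CD79B and FCER2 had 0 FPKM in both libraries. CD79A, of the B cell receptor, had 0.15 and 0.05 FPKM. The factors of the list were not off as a group, since 7 of 12 were detected, or 58.3%, near the 59.7% of all genes, with a median of 4.28 FPKM. Of 15 surface members only CR2, CD24 and TNFRSF13C (the BAFF receptor) were detected, and the highest of these, TNFRSF13C, had 2.37 and 3.06 FPKM.

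Among the B cell genes that were on, TCF3 (E2A), a broadly expressed factor, had 74.1 and 78.4 FPKM. IGLL1, the surrogate light chain of precursor B cells, had 50.01 and 49.2 FPKM, and it resembles the lambda constant region in sequence, so reads may be shared. The kinases BLK and LYN had 13.2 and 12.9 FPKM and 11.0 and 10.8 FPKM. CIITA, the class II transactivator, had 12.5 and 17.1 FPKM, and BACH2 had 6.42 and 7.14 FPKM.

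Antigen presentation genes were on throughout. All 29 HLA class I and class II genes and their cofactors were detected, beside 59.7% of all genes. The list median was 39.5 FPKM. B2M had 1441 and 1529 FPKM, HLA-B had 720.0 and 713 FPKM, and HLA-C had 577 and 640.5 FPKM. The class II chain HLA-DRA had 480 and 492 FPKM, and CD74, the invariant chain, had 1070.2 and 616 FPKM. HLA-DMB, of the peptide editor, had 12.8 and 6.05 FPKM. CD74 and HLA-DMB were lower in library 2, while HLA-DRA hardly differed. HLA genes are similar in sequence and vary between people, so levels of single HLA genes are uncertain.

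**Figure D3:**
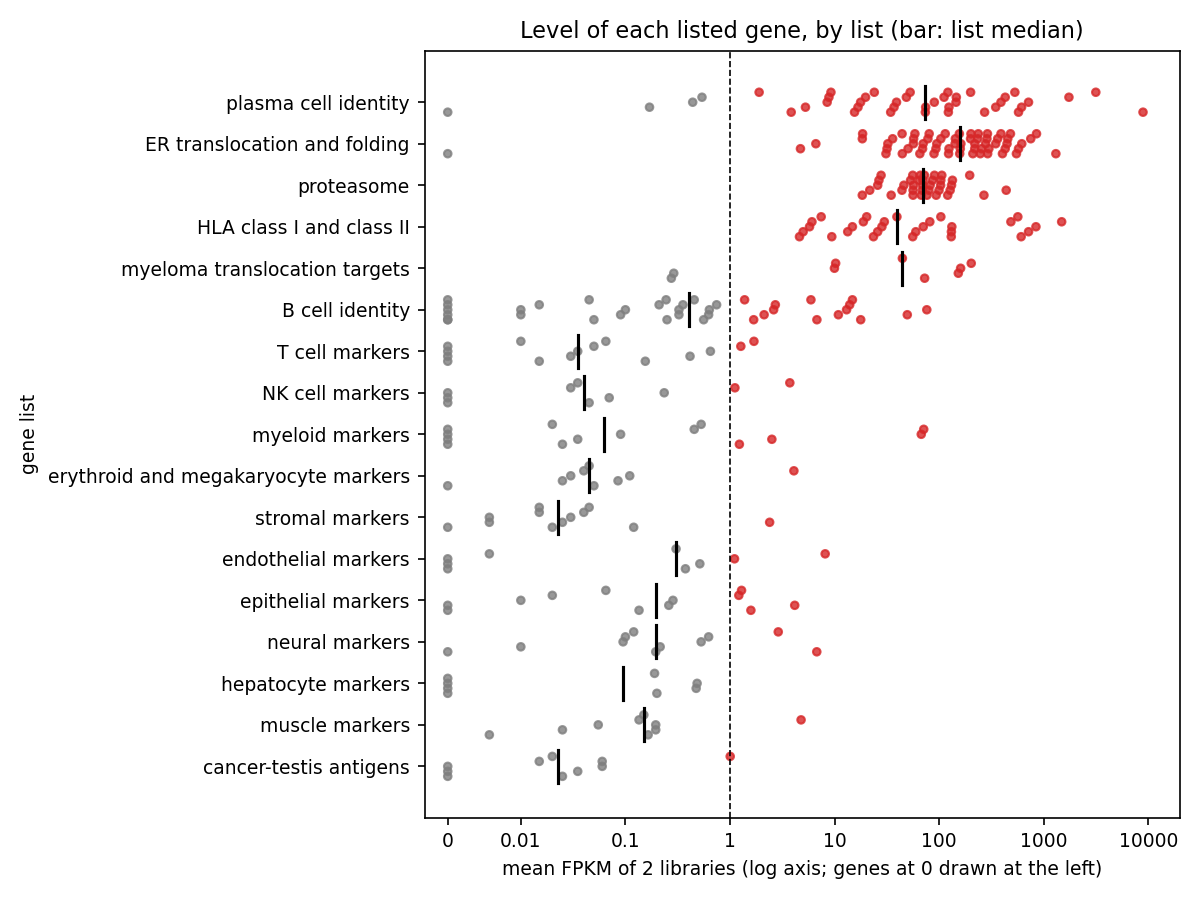
Mean FPKM of each listed gene over 2 libraries, 1 row per gene list, on a log axis with genes at 0 drawn at the left; red points are at or above 1 FPKM (dashed line), grey points below, and black bars are list medians. Plasma cell, ER, proteasome and HLA genes lie almost wholly to the right of the line, with medians from 39.5 to 157 FPKM, and the medians of the B cell list and of all other lineage lists lie to its left.

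Both genes of the t(4;14) region were on. NSD2, a histone methyltransferase, had 71.0 and 74.4 FPKM, and FGFR3, a growth factor receptor, had 199.8 and 206 FPKM. Of the D-type cyclins, CCND2 had 125 and 180 FPKM, CCND3 had 10.1 and 10.4 FPKM, and CCND1, the target of t(11;14), had 0.21 and 0.37 FPKM. MAF, a factor that other translocations activate, had 37.5 and 51.5 FPKM. MYC had 154 and 168 FPKM, and MYCN had 10.7 and 9.29 FPKM.

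Cell division genes were on, as all 30 proliferation genes were detected, beside 59.7% of all genes. Their median was 88.9 FPKM. H2AZ1 had 568 and 599 FPKM, STMN1 had 380.4 and 329 FPKM, PCNA had 297 and 305 FPKM, and MKI67 had 47.1 and 33.3 FPKM. All 9 cyclin-dependent kinase inhibitors and related brakes were detected too, beside the same share of all genes. CDKN2C (p18) led with 300 and 122 FPKM, and CDKN1B (p27) had 89.1 and 95.8 FPKM. CDKN2A had 65.1 and 26.6 FPKM, of which the transcript for p14ARF made up 46.9 and 13.8 FPKM. RB1 had 13.7 and 14.8 FPKM. CDKN2C and CDKN2A thus differed between the libraries more than RB1 or CDKN1B did.

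All 37 proteasome genes were detected, beside 59.7% of all genes. Their median was 70.2 FPKM, with a range from PSMD12, at 17.6 and 19.3 FPKM, to PSMB4, at 416 and 460.2 FPKM. PSMB5, the subunit that bortezomib binds, had 53.1 and 60.9 FPKM, and its immunoproteasome counterpart PSMB8 had 48.6 and 63.3 FPKM. The immunoproteasome subunits PSMB9 and PSMB10 had 30.5 and 21.2 FPKM and 49.99 and 62.7 FPKM. The ranges of PSMB5 and PSMB8 over the libraries overlapped.

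Of 17 BCL2 family genes, 12 were detected, or 70.6% beside 59.7% of all genes. MCL1, the survival protein of plasma cells, had 336 and 284 FPKM, BCL2 had 64.3 and 60.8 FPKM, and BCL2L1 (BCL-xL) had 15.5 and 17.3 FPKM, whereas BCL2A1 had 0 FPKM in both. The long MCL1 transcript had 248 and 209 FPKM, a further RefSeq transcript had 83.1 and 68.5 FPKM, or 24.7% and 24.1% of the gene, and the short form, which promotes cell death, had 5.20 and 6.39 FPKM. Of the effectors, BAX had 55.0 and 65.0 FPKM and BAK1 had 28.1 and 25.9 FPKM. Of the BH3-only killers, 7 of 8 were detected, from BMF, at 18.4 and 49.1 FPKM, to BIK, at 0.60 and 1.59 FPKM. BCL2L11 (BIM) was the one below detection, with 0.07 FPKM in each library.

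The 13 nuclear receptor coactivators and their partners were all detected, beside 59.7% of all genes. Their median was 16.5 FPKM. NCOA3, which encodes SRC-3, had 19.1 and 22.6 FPKM. Its relatives NCOA1 (SRC-1) and NCOA2 (SRC-2) had 5.74 and 6.91 FPKM and 11.96 and 16.6 FPKM, so NCOA3 was the highest of the 3 in both libraries. The acetyltransferases EP300 and CREBBP had 19.0 and 23.3 FPKM and 12.4 and 14.5 FPKM. PRMT1, a methyltransferase, was the highest of the list, with 147 and 169 FPKM.

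Of 23 cytokines and chemokines, 9 were detected, or 39.1% beside 59.7% of all genes. CCL3 (MIP-1alpha), a chemokine tied to myeloma bone disease, had 53.8 and 166 FPKM, CCL5 had 19.4 and 49.9 FPKM, and VEGFA had 73.4 and 102 FPKM. IL6, the growth factor of myeloma cells, had 0 and 0.10 FPKM, and TNF and IL1B had 0 FPKM in both. IL6R and IL6ST, the chains of the IL-6 receptor, had 47.4 and 41.2 FPKM and 98.3 and 122 FPKM. The receptor was thus on while its ligand was not detected at this depth. DKK1, an inhibitor of bone formation, had 0.73 and 0.40 FPKM. Of 24 listed receptors, 20 were detected, or 83.3%, above the share of all genes.

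Markers of other cell types were mostly off. Detected genes numbered 2 of 15 listed T cell markers, 2 of 10 NK cell, 4 of 14 myeloid, 1 of 9 erythroid and megakaryocyte, 1 of 12 stromal, 2 of 9 endothelial, 4 of 12 epithelial, 2 of 11 neural, 0 of 8 hepatocyte and 1 of 9 muscle markers. The share detected was highest for epithelial markers, at 33.3%, beside 59.7% of all genes. Every one of these lists had a median below 0.31 FPKM. Among the undetected members, CD3E, CD4, GZMB, PRF1, FCGR3A, MPO, VWF, CDH5, EPCAM and HNF4A had 0 FPKM in both libraries. Other members just passed the detection level. They included the T cell markers ZAP70, with 1.77 and 1.62 FPKM, and TCF7, with 1.28 and 1.26 FPKM. EOMES, of the NK cell list, had 1.11 and 1.12 FPKM. The epithelial markers KRT8, KRT18 and CLDN3 had 1.52 and 1.65, 1.26 and 1.17, and 1.19 and 1.39 FPKM.

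A few lineage markers stood out from their lists. CLEC7A (dectin-1), a receptor for fungal glucans, had 64.5 and 70.5 FPKM, and CEBPB, a myeloid factor that myeloma cells also use, had 64.5 and 78.0 FPKM, whereas CD14 had 0.11 and 0.07 FPKM. PECAM1 (CD31), an adhesion molecule of endothelial and plasma cells, had 10.5 and 5.76 FPKM. KLRD1 (CD94), an NK cell receptor chain, had 3.83 and 3.64 FPKM. SOX2, a stem cell factor, had 6.18 and 7.34 FPKM, and SNAP25, of the neural list, had 3.18 and 2.61 FPKM. ACTA2, of smooth muscle, had 2.23 and 7.34 FPKM. MUC1, of the epithelial list, had 5.08 and 3.24 FPKM, and EPOR, of the erythroid list, had 4.86 and 3.31 FPKM. Why these genes were on while most others of their lists were off was not tested.

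Germ line genes were mostly off. Of 22 cancer-testis antigens 10 were listed, and 1 of these was detected, or 10% beside 59.7% of all genes. It was MAGEA10, with 0.94 and 1.07 FPKM, at the detection level itself. The genes of the table all had a read in at least 1 of the 8 libraries, so a gene that was not listed has no value here. Of 12 listed globin, pluripotency and germ line genes 5 were detected, or 41.7%, below the share of all genes. The oncofetal RNA-binding proteins IGF2BP1, IGF2BP2 and IGF2BP3 were on, with 5.94 and 7.84, 13.5 and 15.4, and 8.27 and 7.03 FPKM. NANOG, a pluripotency factor, had 1.42 and 1.89 FPKM.

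Gene families separated in the same way. All 78 mitochondrial ribosomal protein genes and all 37 complex I subunits were detected, with medians of 37.0 and 63.9 FPKM, and so were 400 of 510 zinc finger genes, or 78.4% beside 59.7% of all genes, with a median of 3.59 FPKM beside 3.21 FPKM. Of 188 olfactory receptors, 6 were detected, led by OR7E24, with 14.5 and 16.1 FPKM, and the whole family held 0.00796% and 0.00813% of the summed FPKM. None of 9 HOXB, 5 HOXC and 7 HOXD genes was detected, and 3 of 10 HOXA genes were, led by HOXA5, with 2.46 and 1.76 FPKM. Keratin-associated proteins had 1 of 26 detected, protocadherins 2 of 43, and cytochromes P450 11 of 52, the last led by CYP51A1, an enzyme of sterol synthesis, with 97.6 and 82.3 FPKM. Replication-dependent histones had 30 of 58 detected, or 51.7%, near the share of all genes.

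Outside every list and family, the most abundant genes were EEF1A1, MTRNR2L2, PTMA, FTL and VIM. PTMA (prothymosin alpha) had 2158 and 1892 FPKM, FTL (ferritin light chain) had 1626 and 1742 FPKM, and VIM (vimentin) had 1427 and 1679.8 FPKM. MTRNR2L2 had 2246 and 2851 FPKM. It is a nuclear copy of the mitochondrial 16S ribosomal RNA, and its reads may be shared with mitochondrial ones. The 10 MTRNR2L genes of the table held 1.10% and 1.45% of the summed FPKM, and all 8 that were detected were higher in library 2, a group looked at after its values were seen.

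The 2 libraries were similar but not identical. Of 11087 detected genes above 0 in both, the median log2 ratio of library 2 to library 1 was -0.002, and the median absolute log2 ratio was 0.20, or 1.15-fold. Of these genes 219, or 1.98%, were at least 2-fold apart, 150 of them higher in library 2 and 69 higher in library 1. Across all genes, Pearson's r of log2(FPKM + 1) was 0.994 and Spearman's rho of FPKM was 0.985. These are correlations over genes that share the 2 libraries. The libraries had 9 of their 10, 95 of their 100 and 910 of their 1000 most abundant genes in common.

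The spread between the libraries is given by level beside the counting error, which separate libraries usually exceed. From 1 to under 5 FPKM the SD of the log2 ratio, taken from the median absolute value, was 0.41, beside 0.17 for counting error alone. From 10 to under 50 FPKM it was 0.27 beside 0.06, and at 500 FPKM or more it was 0.15 beside 0.02. The share at least 2-fold apart was 5.29% from 1 to under 5 FPKM, 0.772% from 10 to under 50 FPKM and 0 of 133 genes at 500 FPKM or more.

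**Figure D4:**
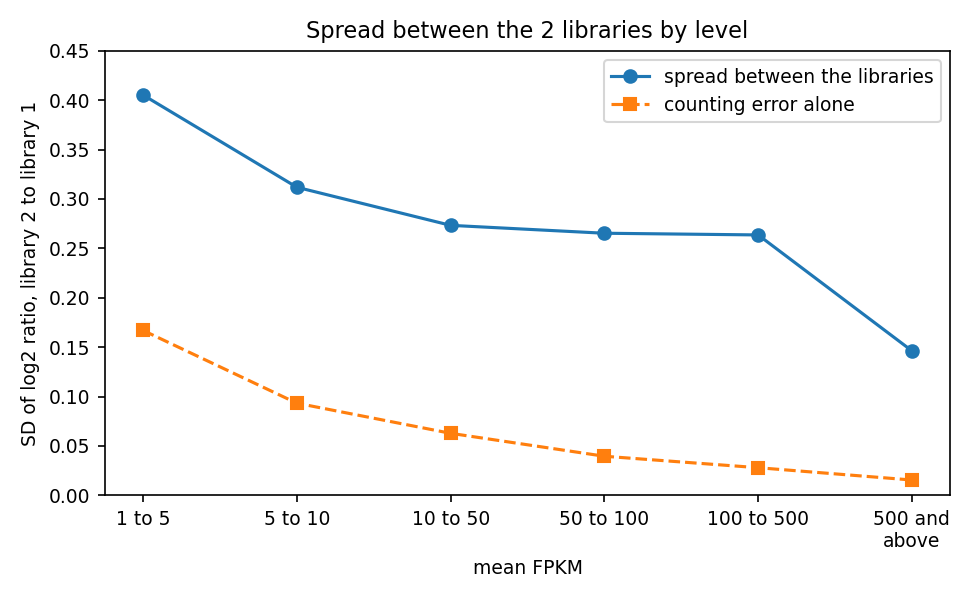
SD of the log2 ratio of library 2 to library 1 among detected genes, by mean FPKM (blue circles, from the median absolute value), with the median SD that counting error alone would give (orange squares). The spread falls from 0.41 to 0.15 and the counting error from 0.17 to 0.02, and the spread lies above the counting error in every class.

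Among genes with a mean of at least 50 estimated reads, GNAO1, a G protein subunit, had 1.37 and 10.6 FPKM, a log2 ratio of 2.95. SMIM11A, with 0.76 and 8.26 FPKM, had the highest ratio, 3.44, and it has a near-identical copy in some assemblies, so its reads may be split. FBXO39 had 0.37 and 3.96 FPKM. ATF3, an immediate stress-response factor, had 6.53 and 30.7 FPKM, a log2 ratio of 2.23. LZTS3, CDRT4, AOC2, TNFAIP8L2-SCNM1, LOC644634 and AVIL filled the other places among the 10 most raised in library 2, with log2 ratios from 1.89 to 2.39. In the other direction, CLYBL, a mitochondrial lyase, had 4.12 and 1.07 FPKM, a log2 ratio of -1.95. Its estimated counts, 143 and 89.9, lay closer together, so this ratio also reflects how reads were assigned to its transcripts. CIDEB, of lipid droplets, had 9.52 and 3.04 FPKM. RPS10-NUDT3, LMO3, GRB14, AMPD1, IQCG, TMEM200A and STARD5 were also among the 10 lowest, with log2 ratios from -1.66 to -1.33. RPS10-NUDT3 and TNFAIP8L2-SCNM1 are readthrough genes that overlap their neighbours, so their levels are uncertain.

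Several gene groups leaned to one library, and those given here are a selection of the lists and families. Of all detected genes 5498 of 11088, or 49.6%, were higher in library 2. Ribosomal protein genes were higher there in 66 of 84, with a median log2 ratio of 0.05. Complex I genes were higher in 7 of 37, with a median of -0.26, mitochondrial ribosomal protein genes in 23 of 78, with -0.15, and ER genes in 18 of 60, with -0.16. The 7 detected BH3-only genes were all higher in library 2, with a median of 0.98, but they are too few to call a lean. PMAIP1 (NOXA), for example, had 18.8 and 38.8 FPKM, while BIK lay near the detection level. Cytokine receptors were higher in library 2 in 16 of 20, and nuclear receptor coactivators in 10 of 13. Of 9 detected cytokine genes 6 were higher in library 2, CCL3 and CCL5 among them, too few genes to call a lean. Some reference genes moved as well, since ACTB had 1082 and 614 FPKM, while GAPDH had 1382 and 1237 FPKM and PPIA had 1360.4 and 1343 FPKM. The cause of these differences was not tested.

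**Figure D5:**
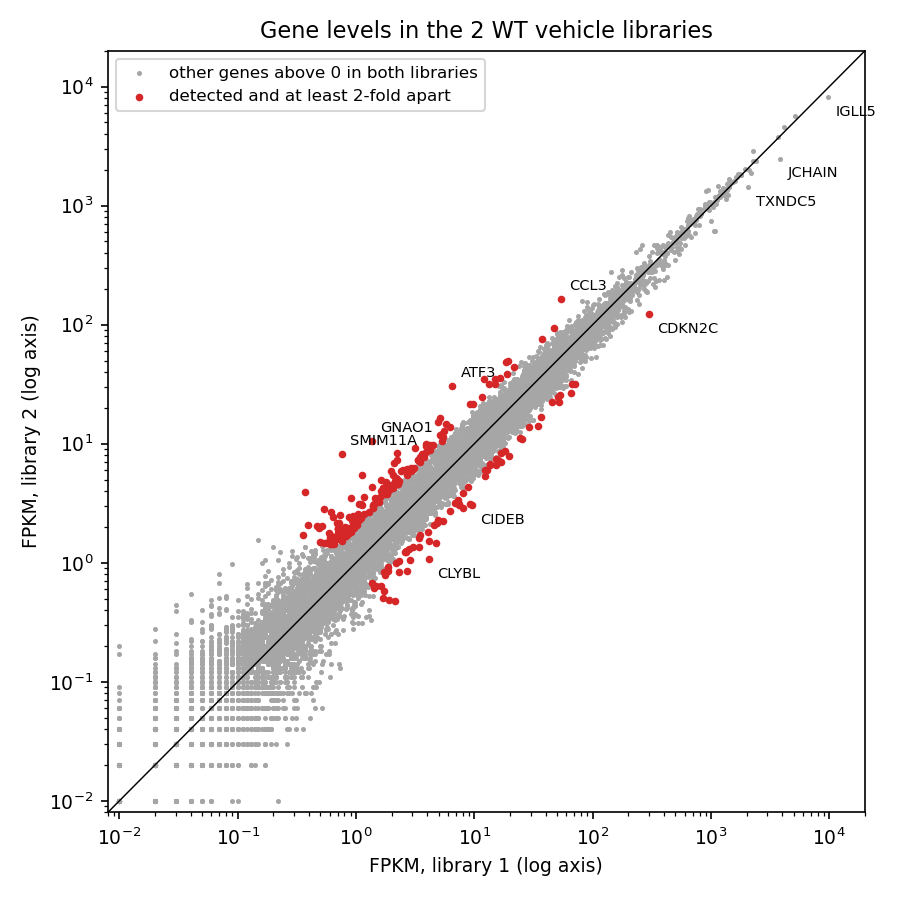
FPKM of each gene above 0 in both libraries, library 1 against library 2 on log axes, with the line of equal levels; red points are detected genes at least 2-fold apart. Most genes lie close to the line, the 219 red points are mostly of low level, and CCL3 and CDKN2C are among the few red points above 50 FPKM.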

How the data were processed

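Per the labels and the methods of the study, the authors sequenced total RNA by BGI protocols. The submitters' processing notes name BWA, Bowtie2 and RSEM and the build hg19, with versions not given in the sources used here. The gene table deposited by the authors holds estimated counts and FPKM per library, for genes and for RefSeq transcripts. Columns of averages and the tables of the authors' own fold changes and p-values between groups were not used. FPKM of the 2 WT DMSO libraries was averaged with Python 3.11.15, pandas 2.3.3 and numpy 2.4.6, with no pseudocount and a detection level of 1 FPKM. TMM scaling used edgeR 4.0.16. With 2 libraries of 1 condition, no test was run and other conditions were not compared. Genes named were the 40 highest, the members of the lists, the ends of each family, the 20 highest outside them, and the 10 largest ratios on each side at a mean count of at least 50. The members and lists were chosen with earlier results of these data known. Of 18564 gene IDs, 18267 matched the RefSeq table, and 25 symbols turned into dates were read from their IDs. Simulated counts were used to check only how log2 ratios and their spread were computed, and not the detection, list or promoter steps. Promoter letters are from GRCh38.p14, so no coordinates were joined to hg19 ones. A few members of the lists are not reported here.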

Additional observations from a re-analysis of the deposited data

How the results depend on the processing

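The number of detected genes, 11088, lay from 8344 at a mean of 5 FPKM or more to 14306 at 0.1 FPKM or more, and was 11161 or 11033 with library 2 or library 1 alone. The share of the 100 most abundant genes was 31.1% of the summed FPKM, 18.7% by estimated counts, 24.2% without ribosomal protein genes and 40.7% among genes with whole estimated counts, and 31.5% or 30.8% from 1 library. By counts, 23 of the first 100 genes were ribosomal protein genes in place of 62, as these transcripts are short. The median absolute log2 ratio was 0.20 as reported and with TMM-scaled CPM, 0.11 for log2(FPKM + 1) and 0.22 for log2(FPKM + 0.1) over all genes, 0.19 at 5 FPKM or more and 0.21 among genes with whole counts. Of 40 lists and families, the detected count moved by over 1.5 times in 15 at 0.1 FPKM, in 21 at 5 FPKM, in 5 by TPM, and in 2, endothelial and cancer-testis, without library 2. Chosen after seeing the data, only genes with 1 annotated start gave 73.7% of 57 ribosomal protein genes with the start feature and 52.4% of 84 genes at 500 FPKM or more. No paired analysis was possible because the result comes from no test.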
